A study of Mus musculus with 2 samples.

Results

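The genes described here are 43 lysosomal genes, among the 16383 genes of the count tables used, that were followed across the cells of mouse liver. They were chosen by name and by function. The list holds 11 genes for cathepsins and legumain, 10 for glycosidases and sulfatases, 8 for lipid handling, cofactors and other hydrolases, 7 for membrane proteins and 7 for subunits or accessory proteins of the V-ATPase. All 43 had a column in both tables. The question was how much of each is present in liver sinusoidal endothelial cells (LSECs), Kupffer cells, other macrophages and lymphocytes, and whether the level differed between control liver and liver with nonalcoholic steatohepatitis (NASH).

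Nonparenchymal liver cells (NPCs) came from male C57BL/6 mice that were 8 weeks old when the diets began. The NASH group ate a diet without methionine and choline (MCD) for 6 weeks, a model in which fat and inflammation build up in the liver, and the control group ate chow. Cells of 3 mice were pooled per diet into 1 BD Rhapsody library, so that the diet cannot be told apart from the library and no test between diets was possible. In this method each cell is lysed in a microwell with a barcoded bead, and every captured polyadenylated transcript receives a unique molecular identifier (UMI) near its end, which is why levels were not scaled by transcript length.

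Lysosomes are acidic organelles that break down proteins, glycans, lipids and nucleic acids taken up by endocytosis, phagocytosis or autophagy. The V-ATPase pumps protons into the lumen, soluble hydrolases such as cathepsins work at that low pH, and heavily glycosylated membrane proteins such as LAMP1 and LAMP2 line the inner face. In liver, Kupffer cells and LSECs are the scavenger cells of the sinusoid, and both rely on this compartment. Many lysosomal genes carry the palindrome CACGTG near their start, the core of the CLEAR element that is bound by transcription factors of the MiT family.

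RefSeq promoters of GRCm38.p6, running from 250 bases before to 50 bases after the start, were matched by symbol for 36 of the 43 members. CACGTG, which reads the same on both strands, was present in 13 of these 36 (36.1%), against 8.09% of 27025 genes with a promoter in the same table. The longer palindrome TCACGTGA, which contains it, was present in 7 of the 36 (19.4%), against 1.12% of all genes. The 7 stretches printed here are the upstream matches that overlap no exon of the GENCODE M21 annotation, each with up to 20 bases on either side, on the strand of the gene. Capitals mark CACGTG. They are shown because *Lgmn*, *Ctsd*, *Gaa* and *Atp6v1a* are members with higher levels in NASH macrophages, and *Glb1* has a lower level there. *Ctsf* is a member with a lower level in other macrophages than in Kupffer cells, and *Lamp1* has 4 matches side by side.
Lamp1, chr8:13159080-13159160, plus strand: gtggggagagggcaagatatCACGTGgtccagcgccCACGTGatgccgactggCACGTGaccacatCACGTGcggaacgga
Lgmn, chr12:102439116-102439161, minus strand: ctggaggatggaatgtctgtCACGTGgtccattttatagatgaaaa
Ctsd, chr7:142388047-142388077, minus strand: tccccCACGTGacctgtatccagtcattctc
Gaa, chr11:119267803-119267848, plus strand: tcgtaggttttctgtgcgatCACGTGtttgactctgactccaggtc
Atp6v1a, chr16:44139365-44139410, minus strand: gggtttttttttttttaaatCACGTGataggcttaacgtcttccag
Glb1, chr9:114401010-114401055, plus strand: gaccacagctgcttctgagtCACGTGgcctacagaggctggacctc
Ctsf, chr19:4855066-4855111, plus strand: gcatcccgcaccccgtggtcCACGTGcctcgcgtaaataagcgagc

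The printed match lies 49 bases before the RefSeq start of *Lgmn*, 245 before that of *Ctsd* and 140 before that of *Gaa*. For *Atp6v1a* it lies 131 bases before the start, for *Glb1* 48 and for *Ctsf* 79. *Ctsd* has another match 98 bases before its start, not printed because its stretch overlaps an exon. The *Lgmn* stretch sits between exons of the longer GENCODE model of the gene, chr12:102394084-102439813. Of the 14 members with a promoter whose level was 1.5-fold or more higher in NASH other macrophages, 6 held the motif, and of the other 22 members 7 did. These matches are a description of the letters in the window and say nothing on binding.

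After cells under 500 UMIs or 200 genes were left out, 4209 control and 3710 NASH cells remained, with a median of 1683 and 1654 UMIs, and 21 cell labels occurred in both libraries. Clusters were formed without the 43 members and named by fixed markers. LSECs, led by *Dll4* or *Lyve1*, numbered 1263 control and 1577 NASH cells. Kupffer cells, led by *Cd163*, *Cxcl13* and *Clec4f*, numbered 499 and 476. Other macrophages, led by *F13a1*, *Ace* or *Cx3cr1*, numbered 153 and 357, and lymphocytes (B, T and NK cells or ILCs) 1285 and 602. Median depth differed between the classes, from 1232 UMIs in NASH LSECs to 6161 in control Kupffer cells. All levels are therefore UMIs summed over a class, given as CPM of the UMIs of that class over the 16383 genes. These genes end alphabetically at *Rad54l2*, so UMI totals, CPM and percents of UMIs cover part of each library. Where 2 values stand side by side, the control value comes first and the NASH value second. Intervals are exact 95% intervals for counting error only and do not cover differences between mice.

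The 43 genes together took up 6.45% and 6.63% of the UMIs counted over the 16383 genes in Kupffer cells. Other macrophages followed with 4.01% and 5.69%, LSECs with 2.09% and 1.78%, and lymphocytes with 0.839% and 0.868%. The order of the classes was the same in both libraries, and within a library their intervals did not overlap. Between the libraries only the lymphocyte intervals overlapped (0.826% to 0.852% and 0.849% to 0.887%). A few genes carried most of this signal, since the 5 highest members held between 49.2% and 64.1% of the members' UMIs in each class and library.

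Each class had its own leading genes. *Ctsb*, a cysteine protease with endo- and exopeptidase activity, was the highest member in Kupffer cells, at 13188 CPM (13062 to 13315) and 13562 CPM (13413 to 13712). *Psap*, the precursor of the saposins that help hydrolases reach sphingolipids, led in other macrophages at 9854 and 14527 CPM. *Ctsl*, a cysteine protease that also processes other lysosomal enzymes, led in LSECs at 3379 and 2992 CPM. *Laptm5*, a lysosomal transmembrane protein of blood cells, led in lymphocytes at 1520 and 1682 CPM. In the heat map of all levels the Kupffer columns are the brightest for most hydrolases, whereas *Ctsl*, *Lamp2* and *Laptm4a* are bright in LSECs.

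**Figure D1:**
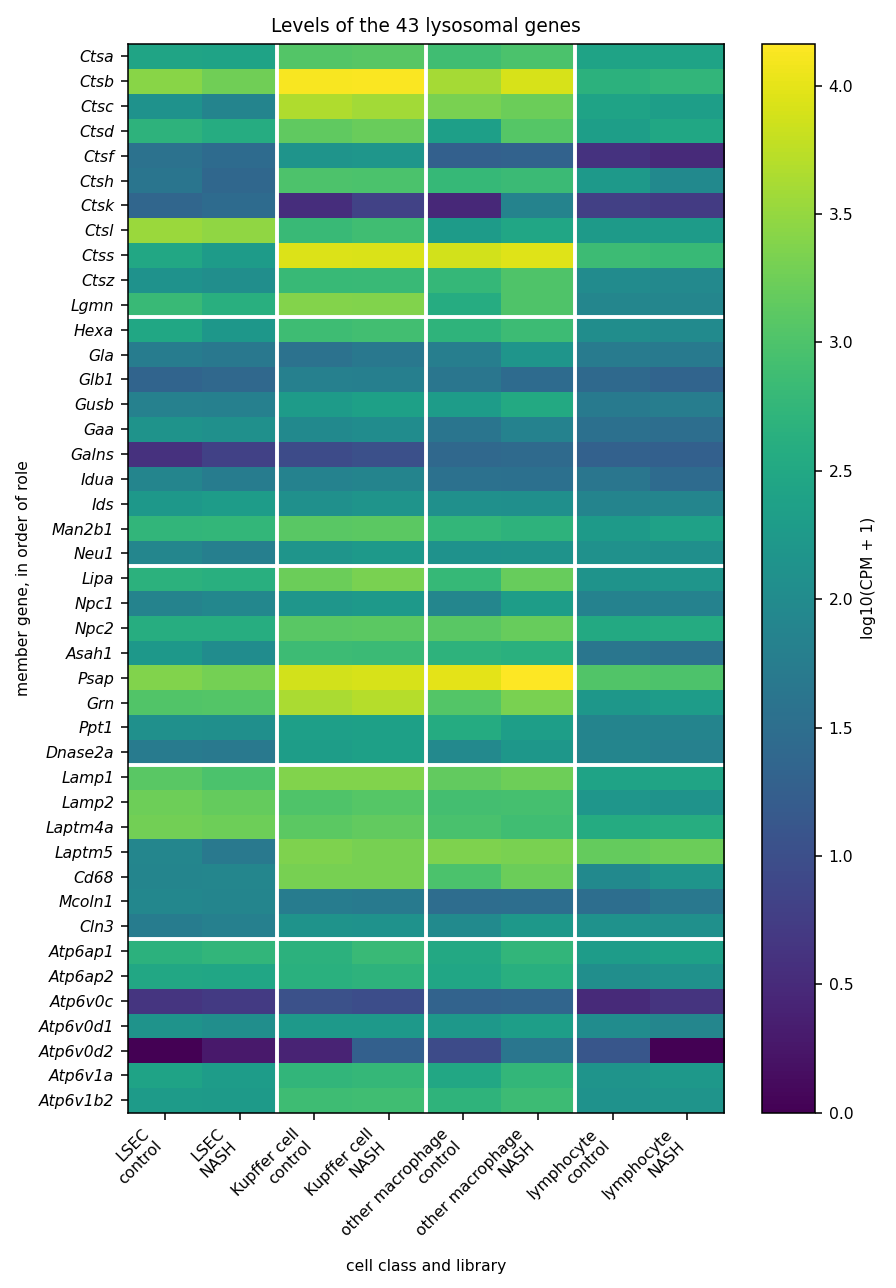
Heat map of the 43 members (rows, grouped by role with white lines) in each cell class and library (columns), coloured by log10 of CPM plus 1. Kupffer cells and other macrophages share bright *Ctsb*, *Ctss* and *Psap* rows, LSECs differ by a bright *Ctsl* row, and *Atp6v0c*, *Atp6v0d2*, *Galns* and *Ctsk* stay dark in most columns.

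Compared with LSECs, Kupffer cells had 25 of 40 measured members at 2-fold or higher levels in both libraries and 2 at 2-fold or lower levels. Over all 6316 genes measured in this pair 13.9% lay that far higher in Kupffer cells and 19.8% that far lower. The median member ratio was 1.38 and 1.64 on the log2 scale, where the median of all genes was -0.21 and -0.24. Of the other lysosomal genes listed, 23 of 73 measured were higher and 4 were lower. Both libraries had to pass the same limit, and with 1 library per diet this is a count by size, not a test.

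The cathepsins split in this pair. *Ctss*, a cysteine protease of antigen-presenting cells, stood at 8922 and 8591 CPM in Kupffer cells and at 311 and 195 CPM in LSECs, a 28.7-fold and 44.1-fold ratio. *Ctsc*, which activates granule serine proteases, had a 34.8-fold and 50.7-fold ratio. The 740 *Ctss* UMIs of control LSECs fell to 267, and the 317 of *Ctsc* to 96, once 7 cells rich in macrophage UMIs were left out, which are described with the macrophage core genes further on. Without such cells, a choice made after the data had been seen, the ratios were 77.2-fold and 45.5-fold for *Ctss* and 111-fold and 52.5-fold for *Ctsc*, so that the control library had the wider gap, and what remained in LSECs was at the macrophage background. The control ratios of *Ctsh*, *Laptm5* and *Cd68* also widened by more than 1.5-fold without them, to 50.2-fold, 62.4-fold and 45-fold. *Ctsl* went the other way, at 663 and 769 CPM in Kupffer cells, 5.10-fold and 3.89-fold below LSECs. *Ctsk*, best known from bone resorption in osteoclasts, was also lower in Kupffer cells, at 8 and 13 UMIs in all, against an LSEC level of 22.7 and 27.6 CPM. Among membrane proteins, *Lamp2* was 1.70-fold and 1.33-fold below the LSEC level, which did not reach the limit, while *Cd68*, the macrophage sialomucin, was 26.2-fold and 25.3-fold above it.

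For glycosidases and lipid-handling genes the ratios were smaller. *Hexa*, the alpha subunit of beta-hexosaminidase, was 2.44-fold and 4.97-fold higher in Kupffer cells, and *Lipa*, which hydrolyses cholesteryl esters and triglycerides, 3.52-fold and 5.01-fold. *Asah1*, acid ceramidase, was 4.35-fold and 6.53-fold higher, and *Grn*, the precursor of granulins, 3.96-fold and 4.46-fold. *Npc2*, which hands cholesterol over inside the lysosome, was 3.24-fold and 3.25-fold higher, almost the same ratio in both libraries. By contrast *Gaa*, which degrades glycogen, *Gla*, alpha-galactosidase A, *Ids*, a sulfatase of glycosaminoglycans, and *Mcoln1*, a cation channel, did not pass in either direction.

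Macrophage UMIs were found in LSECs too. Of the 1263 control LSECs, 7 had 1% or more of their UMIs from 7 macrophage core genes (*C1qa*, *C1qb*, *C1qc*, *Clec4f*, *Cd5l*, *Csf1r*, *Adgre1*), and these 7 cells held 56.0% of all such UMIs in control LSECs. In the NASH library 5 of 1577 LSECs did, with 2.89% of them. These 7 control cells had a median of 10196 UMIs and the 5 NASH cells one of 1100. With those cells left out, the core genes summed to 1.48% of their Kupffer level in control LSECs and 2.38% in NASH LSECs.

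Against that yardstick the members formed separate groups. *Ctsc*, *Ctss*, *Laptm5*, *Ctsh* and *Cd68* were the lowest, at 0.895%, 1.29%, 1.59%, 1.97% and 2.21% of their Kupffer level in control LSECs. In NASH LSECs the same genes stood at 1.90%, 2.20%, 2.23%, 2.38% and 3.93%, and single core genes ranged from 0.924% to 2.00% in control LSECs and from 1.67% to 3.06% in NASH LSECs. All but *Cd68* lay at or under the upper end of that range in each library, so their UMIs in LSECs cannot be told apart from the macrophage background. The next member, *Ctsb*, already stood at 19.1% and 13.4%, and *Ctsl* at 526% and 394%.

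**Figure D2:**
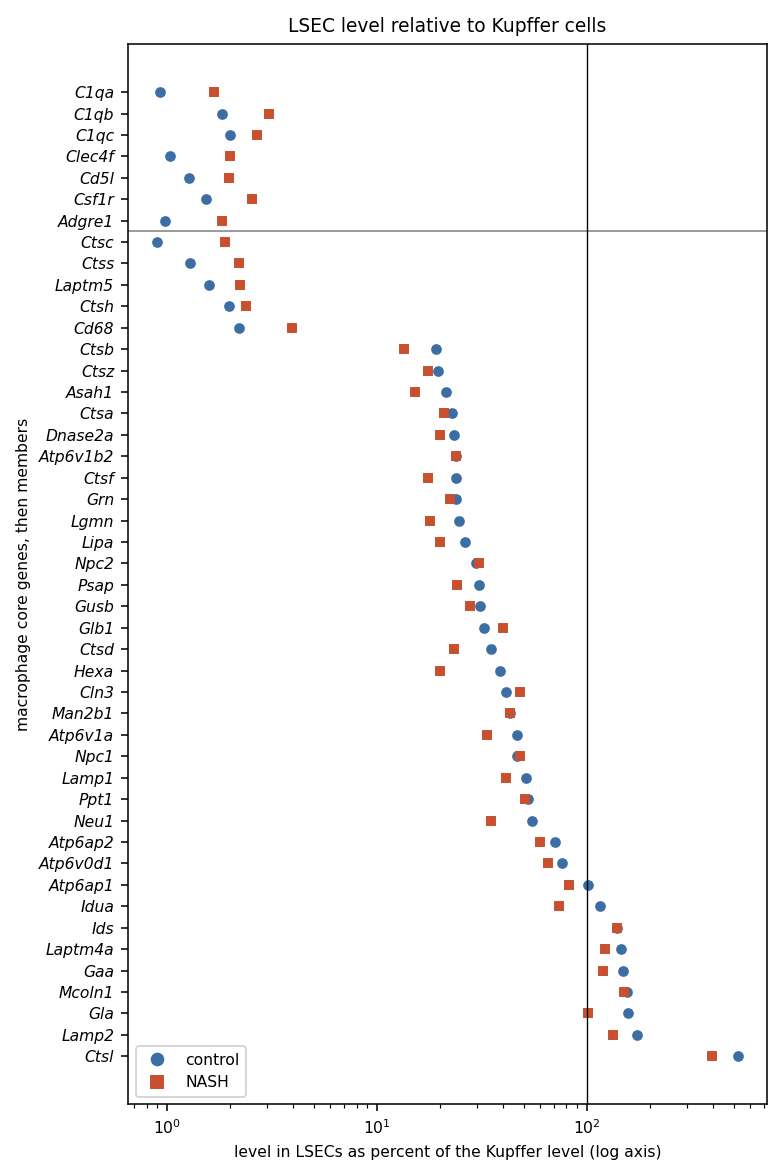
Level in LSECs as a percent of the level in Kupffer cells (log axis) for 7 macrophage core genes (above the grey line) and for members with 50 or more UMIs in Kupffer cells of each library, in control (circles) and NASH (squares), with cells of 1% or more UMIs from another class's core genes left out. *Ctsc*, *Ctss*, *Laptm5*, *Ctsh* and *Cd68* lie beside the core genes, and all other members lie at 13.4% or more.

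The share of cells with a UMI was compared between the classes. After thinning to 1000 UMIs, which 76.9% of control and 65.5% of NASH LSECs reached, *Ctsl* was found in 88.8% of control and 87.5% of NASH LSECs (89.7% and 88.3% before thinning), and in 48.0% and 52.1% of Kupffer cells (87.0% and 87.6% before thinning). For *Ctss* the thinned shares were 11.9% and 15.9% in LSECs (18.3% and 21.7% before thinning) while every thinned control Kupffer cell and 99.5% of NASH Kupffer cells had one (99.4% and 99.2% before thinning). Between the libraries the *Ctss* share of LSECs ran against its level, which was lower in NASH LSECs, at 311 and 195 CPM over all cells.

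Lymphocytes had the lowest summed level of the 4 classes. Kupffer cells were 2-fold or more above them for 31 of 39 measured members and below them for none, where 14.0% of all genes lay that far above and 23.0% that far below. *Lgmn*, legumain, an asparaginyl endopeptidase that activates other proteases, was 31.1-fold and 29.2-fold higher, *Ctsb* 28.4-fold and 24.8-fold, *Grn* 26.6-fold and 25.2-fold and *Asah1* 17.0-fold and 18.9-fold. LSECs were 2-fold or more above lymphocytes for 16 of 40 members and below them for 3, against 19.9% and 19.2% of all genes. *Ctsl*, 18.5-fold and 15.5-fold, and *Lamp2*, 11.6-fold and 11.1-fold, had the widest ratios among the 16, and the 3 below were *Ctsh*, *Ctss* and *Laptm5*, which were named above as no higher than the macrophage background in LSECs.

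Within the lymphocytes the cathepsins differed between lineages. *Ctsh*, an aminopeptidase, stood at 407 and 292 CPM in B cells but at 6.52 and 20.2 CPM in T cells. *Ctss* stood at 1308 and 1506 CPM in B cells and at 320 and 328 CPM in T cells. *Ctsd*, the main aspartic protease of the lysosome, was the reverse, with 54.2 and 94.6 CPM in B cells against 290 and 316 CPM in T cells and 483 and 600 CPM in NK cells or ILCs. *Cln3*, a membrane protein mutated in juvenile Batten disease, also stood lower in B cells, at 37.8 and 57.6 CPM, than in T cells, at 184 and 140 CPM.

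Other macrophages were compared with Kupffer cells in the same way. No member was 2-fold or more higher than in Kupffer cells in both libraries and 6 of 39 were lower, against 4.77% and 6.21% of all genes. The 6 were *Ctsc* (2.21-fold and 2.30-fold lower), *Ctsf* (7.38-fold and 7.93-fold), *Ctsl* (3.38-fold and 2.66-fold), *Lgmn* (6.60-fold and 2.22-fold), *Man2b1*, an alpha-mannosidase (2.17-fold and 2.68-fold), and *Grn* (3.82-fold and 2.35-fold). For *Lgmn* and *Grn* the gap to Kupffer cells was narrower in the NASH than in the control library, and this narrowing was not tested.

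Between diets, Kupffer cells had similar member levels. None of 40 measured members lay 1.5-fold or more higher or lower in the NASH library, a limit that 5.44% of all genes passed upwards and 3.33% downwards. Their median log2 ratio was 0.09, the median of all genes was 0, and the interval lay above 0 for 16 members and below 0 for 5. Of all 6211 genes measured, it lay above 0 for 797 and below 0 for 692. Intervals are narrower for genes with more UMIs, so these counts depend on level. Among the members the widest ratio upwards was that of *Atp6ap1*, an accessory protein of the V-ATPase, at 479 and 672 CPM (log2 ratio 0.49, 0.38 to 0.59). *Lipa* stood at 1691 and 2076 CPM (0.30, 0.24 to 0.35) and *Grn* at 4281 and 5020 CPM (0.23, 0.19 to 0.27). The widest downwards was *Ctsc*, at 4635 and 3814 CPM, which dropped by 0.28 on the log2 scale. Outside the measured members, *Atp6v0d2* had 5 control and 42 NASH UMIs, under the minimum of 50. Of 74 other lysosomal genes measured 2 lay higher and 1 lower. Kupffer cells were shallower in the NASH library, with a median of 4546.5 UMIs.

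**Figure D3:**
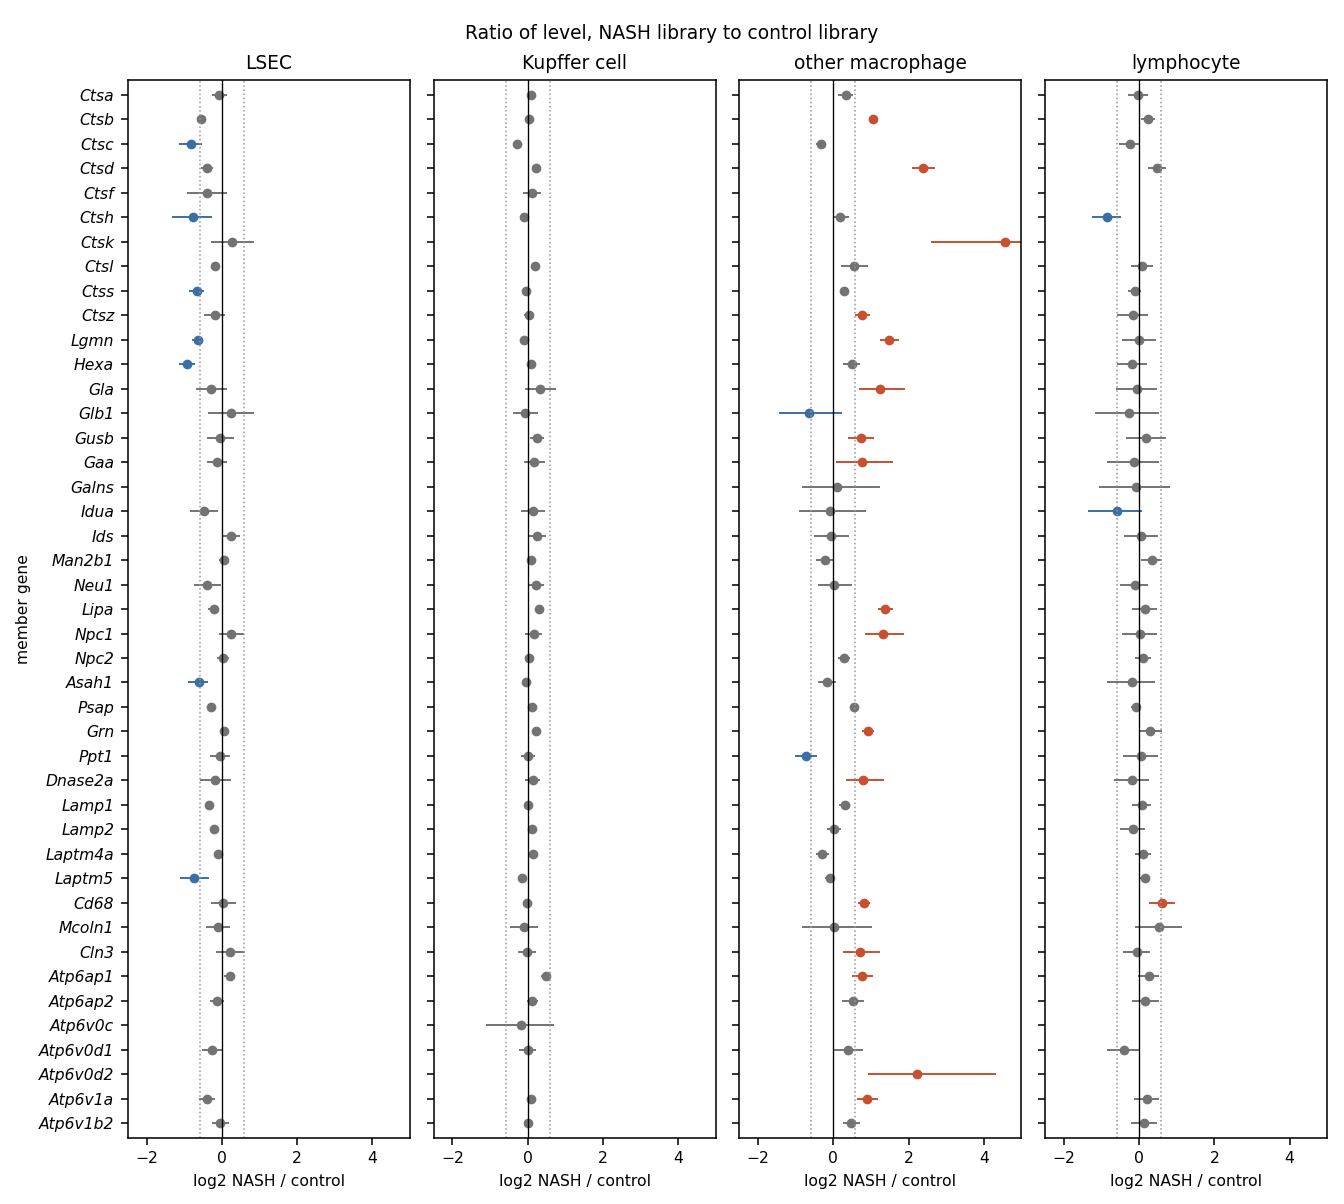
Log2 ratio of the NASH to the control level for each measured member in the 4 cell classes, with exact 95% intervals for counting error and dotted lines at 1.5-fold. Red points lie 1.5-fold or more higher and blue points that far lower. The 17 red points among other macrophages contrast with the Kupffer panel, which has neither, and with the LSEC panel, which has 7 blue points.

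In other macrophages many members lay higher. Of 41 measured members 17 lay 1.5-fold or more higher in the NASH library and 2 lay lower, where 11.8% of all genes lay higher and 14.5% lower. The median member had a log2 ratio of 0.49 and the median gene one of -0.06. Other macrophages were deeper in the NASH library, with a median of 4058 UMIs against 3113 in the control, and the part of depth was not tested. Among the other lysosomal genes listed, 21 of 69 were higher and 3 lower. By role, 5 of the 10 measured genes for cathepsins and legumain, 3 of 10 glycosidases and sulfatases, 4 of 8 genes of lipid handling and other hydrolases, 2 of 7 membrane proteins and 3 of 6 V-ATPase genes were higher.

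*Ctsd* had one of the widest ratios, with 219 and 1152 CPM (log2 ratio 2.39, 2.11 to 2.68). *Lgmn* stood at 372 and 1047 CPM (1.49, 1.27 to 1.72) and *Ctsb* at 3922 and 8110 CPM (1.05, 0.98 to 1.12). *Ctsz*, a carboxypeptidase, stood at 598 and 1024 CPM (0.77, 0.60 to 0.96). *Ctsk* had 1 and 108 UMIs (4.56, 2.63 to 10.45) and reached the minimum of 50 UMIs only through the NASH library. *Ctss*, high in both, stood at 7593 and 9148 CPM and did not reach the limit.

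For lipid handling, *Lipa* stood at 604 and 1578 CPM (1.38, 1.21 to 1.56) and *Npc1*, the membrane protein that exports cholesterol from lysosomes, at 80.5 and 204 CPM (1.33, 0.87 to 1.86). *Grn* stood at 1119 and 2135 CPM (0.93, 0.80 to 1.06). *Gla* was at 60.4 and 146 CPM (1.25, 0.72 to 1.88), *Gusb*, beta-glucuronidase, at 199 and 331 CPM, *Gaa* at 40.2 and 70.1 CPM and *Dnase2a*, the acid DNase, at 88.5 and 156 CPM. *Cd68* stood at 956 and 1680 CPM (0.81, 0.67 to 0.96), *Cln3* at 98.6 and 164 CPM, *Atp6ap1* at 320 and 546 CPM and *Atp6v1a*, the catalytic subunit of the proton pump, at 308 and 576 CPM (0.90, 0.65 to 1.16). *Atp6v0d2*, a subunit isoform of macrophages and osteoclasts, had 4 and 64 UMIs (2.22, 0.96 to 4.30). It also reached the minimum only through the NASH library, and its 4 control UMIs came from 1 cell. With the mean of per-cell CPM its log2 ratio was 0.90. It was also 0.90 with cells of 2 or more UMIs from another class's core genes left out.

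The exceptions were *Ppt1*, palmitoyl-protein thioesterase, at 358 and 217 CPM (-0.73, -0.99 to -0.45), and *Glb1*, beta-galactosidase, at 42.3 and 27.5 CPM, whose interval of -1.41 to 0.21 held 0. *Glb1* shares exonic sequence with *Tmppe* on the same strand. *Lamp1* (1431 and 1761 CPM) and *Lamp2* (837 and 844 CPM) did not reach the limit, nor did *Laptm5* (2262 and 2118 CPM).

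Of the other pathway genes, *Cd63*, a tetraspanin of late endosomes, stood at 101 and 699 CPM (2.78, 2.39 to 3.24) and *Cstb*, a cystatin that inhibits cathepsins, at 511 and 2111 CPM (2.04, 1.86 to 2.24). *Igf2r*, the large mannose 6-phosphate receptor that carries new hydrolases to the lysosome, stood at 18.1 and 93.7 CPM (2.30, 1.41 to 3.53). *Pld3* stood at 86.5 and 340 CPM (1.96, 1.52 to 2.46) and *Mitf*, a MiT factor, at 42.3 and 91.8 CPM (1.09, 0.45 to 1.86).

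The class joined unlike cells, so the ratios were taken again within its clusters at the finer resolution, a choice made after the data had been seen. In the cluster led by *F13a1*, with 72 control and 223 NASH cells, 18 of 37 members lay higher and 1 lower, against 15.5% and 18.3% of all genes. Among the 18, *Ctsk* had 0 and 107 UMIs, *Atp6v0d2* 4 and 55, *Lgmn* 34 and 906 and *Ctsd* 46 and 1277. Such members reached the minimum of 50 UMIs only through the NASH cells, so the count favours members that are higher there. In the cluster led by *Olfml3* and *Cx3cr1*, with 31 and 94 cells, 4 of 33 lay higher (*Ctsb*, *Ctsd*, *Cln3* and *Atp6v1b2*) and none lower, against 12.8% and 9.61%. The 50 control and 40 NASH cells of the cluster led by *Ace* left 20 measured members with a median log2 ratio of 0.04. Of these, 2 lay higher (*Hexa* and *Lipa*) and none lower, against 7.68% and 6.93% of all genes.

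*Ctsd* stood at 173 and 1225 CPM in the *F13a1* cluster, at 437 and 1169 CPM in the *Cx3cr1* cluster and at 105 and 184 CPM in the *Ace* cluster. *Lgmn* stood at 128 and 869 CPM in the first, at 1173 and 1711 CPM in the second and at 122 and 150 CPM in the third. *Lipa* stood at 452 and 1753 CPM, 1165 and 1325 CPM, and 383 and 622 CPM in the same order. In the NASH library *Ctsd* stayed under its Kupffer level of 1607 CPM, and *Lgmn* under its Kupffer level of 2321 CPM, in each of these clusters. All 107 *Ctsk* UMIs of the NASH *F13a1* cluster came from 27 of its 223 cells, and 5 cells held 71.0% of them.

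Markers moved along with these genes. In the *F13a1* cluster the monocyte genes *Ccr2* stood at 5052 and 1941 CPM and *Ly6c2* at 2151 and 938 CPM. *Gpnmb*, a gene of lipid-laden macrophages, had 4 and 1702 UMIs, the latter in 88 of the 223 cells. Of 7 macrophage core genes all were detected, and their sum stood at 4216 and 5899 CPM. The endothelial core genes (*Flt4*, *Kdr*, *Gpr182*, *Oit3* and *Clec4g*) summed to 211 and 687 CPM in the same cluster. *Ctsl*, the highest LSEC member, is among the members that lay higher there, and the part of endothelial RNA was not tested. *Clec4f*, which marks Kupffer cells, stood at 82.9 and 251 CPM and *Cd5l* at 117 and 496 CPM, far under their levels of 7531 and 7222 CPM in control Kupffer cells. Whether the cluster held other kinds of cells or the same cells had other levels cannot be told apart here.

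**Figure D4:**
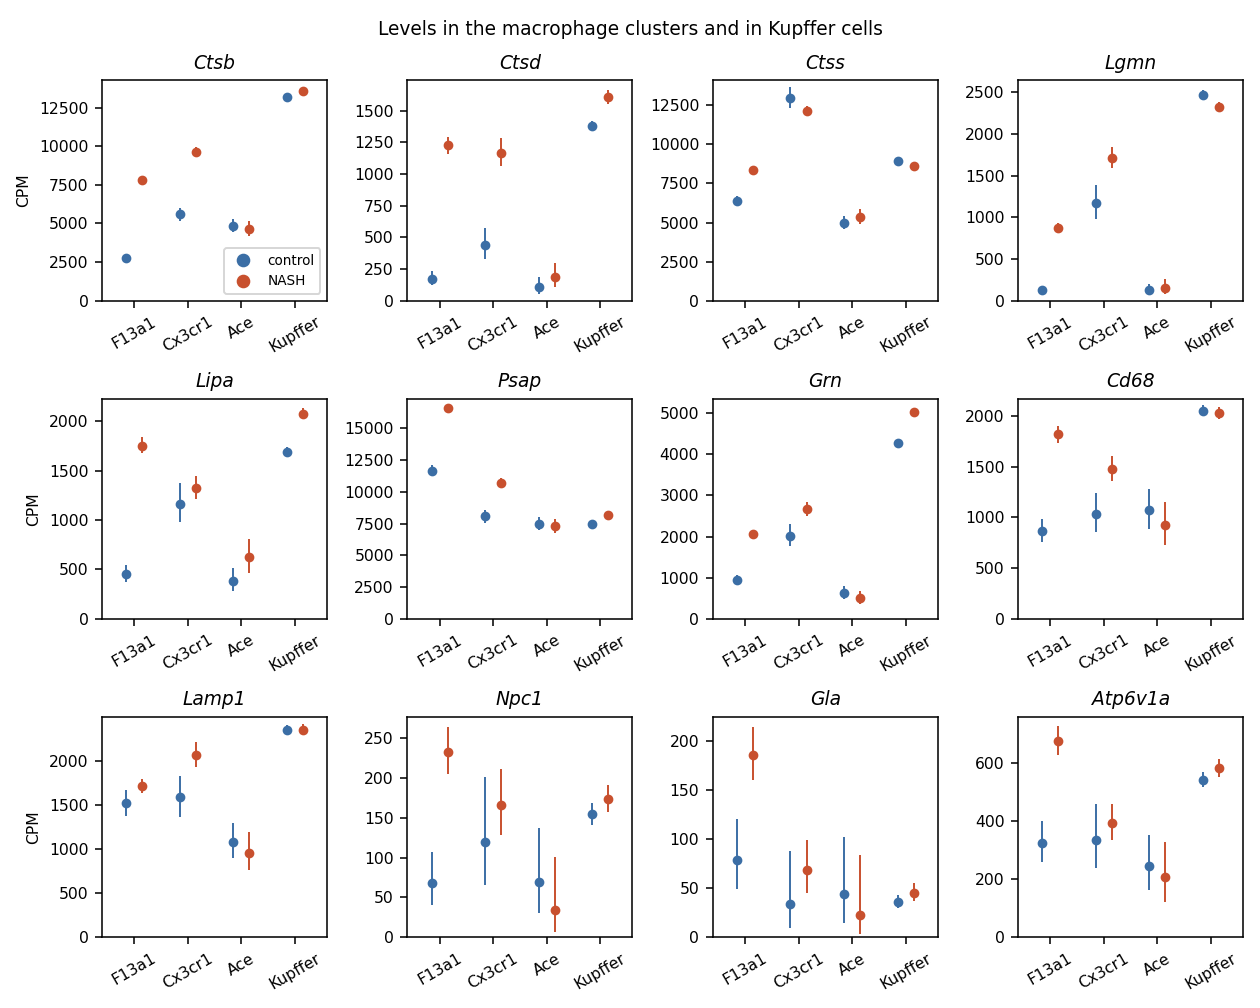
CPM of 12 members in 3 macrophage clusters, named by a leading gene, and in Kupffer cells, for the control (blue) and the NASH library (red), with exact 95% Poisson intervals and each vertical axis starting at 0. *Ctsd*, *Lgmn* and *Lipa* separate the libraries in the *F13a1* cluster, at 173 and 1225, 128 and 869, and 452 and 1753 CPM.

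LSECs had 0 of 40 members 1.5-fold or more higher in the NASH library and 7 lower, against 4.67% and 5.61% of all genes. The median log2 ratio was -0.18 for the members and -0.01 for all genes. The 7 were *Hexa*, *Ctsc*, *Ctsh*, *Laptm5*, *Ctss*, *Lgmn* and *Asah1*. However, 4 of them are genes that LSECs hold at the macrophage background, and the sign of these 4 ratios turned once the cells rich in macrophage UMIs were left out.

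Without the 7 control and 5 NASH cells, a choice made after the data had been seen, *Ctsc* stood at 41.6 and 72.9 CPM (0.81, 0.44 to 1.19), *Ctss* at 116 and 190 CPM (0.71, 0.49 to 0.94) and *Cd68* at 45.5 and 80.2 CPM (0.82, 0.46 to 1.18). These 3 were then higher, and *Hexa* alone was lower, of 40 members, where 5.88% of all genes were higher and 4.57% lower. *Laptm5* had a log2 ratio of 0.35 and *Ctsh* one of 0.18. The macrophage core genes as a sum lay higher in the same cells by 0.66, and the median share of core UMIs per LSEC was 0.0486% and 0.0859%. The part of free macrophage RNA in the ratios of *Ctsc*, *Ctss* and *Cd68* was not tested.

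*Hexa* kept its direction, at 287 and 158 CPM (-0.86, -1.05 to -0.67). It was lower in both LSEC clusters, at 205 and 135 CPM in the cluster led by *Aass* and *Dll4*, and at 326 and 173 CPM in the cluster led by *Lyve1* and *Enpep*. *Lgmn* stood at 607 and 419 CPM without those cells (-0.53, -0.66 to -0.41), and *Asah1* at 152 and 106 CPM (-0.52, -0.77 to -0.28), both then short of the limit.

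The 5 highest LSEC members stood lower in the NASH library, each by less than 1.5-fold, and so did *Ctsd* and *Lamp1*. The values in this paragraph are again without the 7 control and 5 NASH cells, unless all LSECs are named. *Ctsb* was at 2518 and 1832 CPM (-0.46, -0.52 to -0.40), *Ctsd* at 481 and 377 CPM (-0.35, -0.48 to -0.22) and *Lamp1* at 1213 and 978 CPM (-0.31, -0.39 to -0.23). *Ctsl* was at 3465 and 2997 CPM (-0.21, -0.26 to -0.16), *Psap* at 2286 and 1973 CPM (-0.21, -0.27 to -0.15) and *Lamp2* at 1802 and 1527 CPM (-0.24, -0.30 to -0.17). Without those cells the interval lay under 0 for 13 of the 40 members and above 0 for 6, with a median of -0.10. With all LSECs it lay under 0 for 19 members and above 0 for 2, with a median of -0.18. Of all 6276 genes measured in all LSECs, it lay under 0 for 919 and above 0 for 892. The difference of *Ctsl* was narrower in the *Dll4* cluster, at 3390 and 3225 CPM, than in the *Lyve1* cluster, at 3500 and 2851 CPM, and this gap was not tested. All LSECs were also shallower in the NASH library, with a median of 1232 UMIs against 1615 in the control, and the part of depth was not tested.

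**Figure D5:**
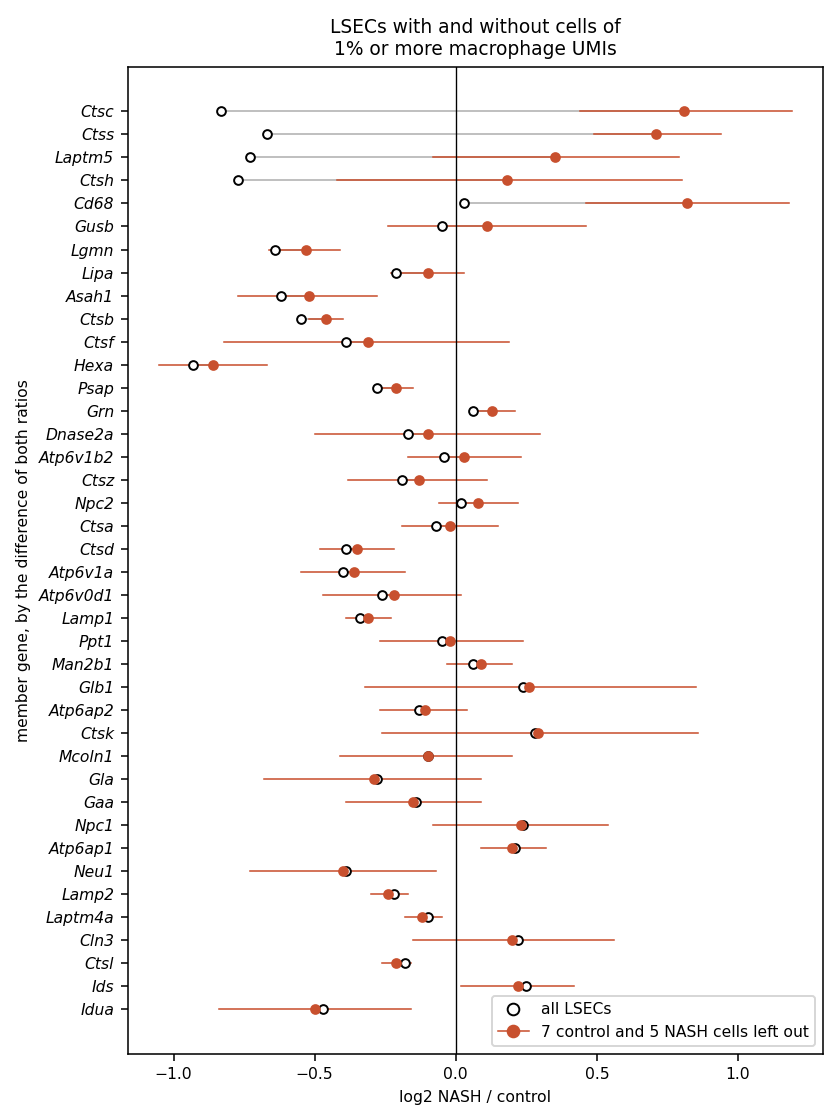
Log2 ratio of the NASH to the control level in LSECs for 40 members, with all LSECs (open circles) and with 7 control and 5 NASH cells of 1% or more macrophage core UMIs left out (red, with exact 95% intervals for counting error). *Ctsc*, *Ctss*, *Laptm5* and *Ctsh* change sides of 0, *Cd68* moves from 0.03 to 0.82.

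Of the other lysosomal genes in LSECs, 1 of 72 lay 1.5-fold or more higher and 5 lay lower, among them *Prcp*, a carboxypeptidase, at 183 and 111 CPM (-0.72, -0.95 to -0.49).

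In lymphocytes 1 of 39 members lay higher (*Cd68*) and 2 lay lower (*Ctsh* and *Idua*), against 5.44% and 6.45% of all genes, and the median was 0.02. *Cd68* stood at 94.1 and 144 CPM (0.61, 0.28 to 0.94), beside macrophage core genes at 471 and 652 CPM in the same cells, and the part of macrophage RNA was not tested. *Ctsh* stood at 172 and 94.3 CPM (-0.86, -1.23 to -0.52). This went along with the makeup of the class, since B cells, which hold most of its *Ctsh*, numbered 627 of 1285 control and 195 of 602 NASH lymphocytes. Within B cells its log2 ratio was -0.47 (-0.87 to -0.11). In T cells, NK cells and ILCs together it had 6 and 15 UMIs, of 329 and 86 in all lymphocytes. *Idua*, which degrades glycosaminoglycans, stood at 41.8 and 27.4 CPM, with an interval of -1.32 to 0.06. Of 67 other lysosomal genes measured 5 lay higher and 3 lower.

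Neutrophils were added after their values had been seen. The 43 genes took up 1.07% of the UMIs of 454 control neutrophils and 2.27% of those of 119 NASH neutrophils. Of 29 measured members 15 lay 1.5-fold or more higher and 1 lower (*Man2b1*), where 19.5% of all genes lay higher and 19.5% lower. *Psap* stood at 1107 and 5085 CPM (2.20, 2.06 to 2.34), *Ctsb* at 599 and 2735 CPM (2.19, 2.00 to 2.38) and *Lipa* at 131 and 933 CPM (2.83, 2.46 to 3.21).

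These neutrophils fell into unlike clusters at the finer resolution, a split chosen after their values had been seen, and the libraries filled them unequally. A cluster led by *Cxcr2* held 429 control and 69 NASH cells, and a cluster led by *Acod1*, with *Ptgs2* and *Ccl4* among its leading genes, held 25 and 50. In the *Cxcr2* cluster the members took up 1.08% and 1.26% of UMIs, and 6 of 28 lay higher and 1 lower (*Ctsc*, with 3 NASH UMIs), against 13.4% and 13.6% of all genes. *Ctsb* stood at 600 and 595 CPM there (0.00, -0.44 to 0.39), *Psap* at 1147 and 1683 CPM (0.56, 0.30 to 0.80) and *Lipa* at 132 and 349 CPM (1.42, 0.79 to 1.99). In the *Acod1* cluster the shares were 0.897% and 3.40%, and 13 of 15 lay higher and none lower, against 34.1% and 21.6% of all genes. The control sums there were small, with 29 *Psap*, 29 *Ctsb* and 6 *Lipa* UMIs, against 773, 446 and 138 in NASH. These members reached the minimum of 50 UMIs only through the NASH cells, so the count favours members that are higher there. *Ctsb* stood at 584 and 5137 CPM there (3.11, 2.60 to 3.73) and *Psap* at 584 and 8903 CPM (3.91, 3.40 to 4.52).

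Markers differed along with these levels. *Csf3r*, the receptor of granulocyte colony-stimulating factor, had a UMI in 99.3% and 97.1% of cells of the *Cxcr2* cluster and in 64.0% and 58.0% of the *Acod1* cluster, where median depths were 1744 and 1621.5 UMIs. *Cxcr2* had a UMI in 84.0% and 38.0% of the *Acod1* cells. All 131 *Gpnmb* UMIs of NASH neutrophils lay in the *Acod1* cluster, and 5 cells held 92.4% of them. The 7 macrophage core genes summed to 724 and 783 CPM in that cluster and the 5 endothelial core genes to 483 and 1417 CPM. Whether cells of another kind had joined it was not tested.

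Some values are limited by the annotation. The counting setting for strand was not stated in the sources used here, and 12 of the 43 members share exonic sequence with a gene on the opposite strand, *Hexa* with *Tmem202* and *Ctsb* with *Fdft1* among them. *Ctsd* and *Ctsl* overlap exons of a gene model on the same strand. *Atp6v0c*, at 2.09 to 21.6 CPM across classes, has 2 named pseudogene copies that could divert its reads, and its level is uncertain.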

How the data were processed

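Liver NPCs of 3 pooled mice per diet gave 1 control and 1 NASH library. The authors deposited UMI counts per gene and cell, made with BD's whole transcriptome pipeline for Rhapsody against GRCm38. The gene annotation was not stated in the sources used here. The 16383 genes analysed end alphabetically at *Rad54l2*, so CPM covers part of each library, and the 5% mitochondrial limit of the study was not applied. The NASH table has no header, and its columns were named by the control order (Pearson correlation across genes of log10 totals 0.973, against 0.473 and 0.471 at a shift of 1 column).

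Cells were clustered with Seurat 5.3.0 in R 4.3.3 (2000 variable genes without the members, 50 principal components, resolution 0.6, 20 clusters), without integration. Doublets were kept, since the study names no removal, and cells with UMIs of another class were left out in alternatives. Summed counts were compared in Python 3.11.15 with scipy 1.17.1. Ratios add 0.5 UMI to each sum and need 50 UMIs over both sums. A gene was counted past 1.5-fold between diets or past 2-fold in both libraries between classes. The ratio step was checked on independent simulated counts without clumping by cell, which checks the calculation and not the spread of these data. Named are members past a limit, the 5 highest per class, and up to 4 other genes per list. Members and lists were chosen with earlier results of these data known. Positions are from GENCODE M21 and promoters from RefSeq.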

Additional observations from a re-analysis of the deposited data

Results flagged for a closer look

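*Lgmn*, legumain, had ratios of opposite sign in 2 classes. Its log2 ratio of the NASH to the control library was 1.49 in other macrophages and -0.64 in LSECs, 2.13 apart. With 1 library per diet the difference was not tested. Without the 12 LSECs of 1% or more macrophage core UMIs the LSEC ratio was -0.53, and in the *F13a1* cluster alone the macrophage ratio was 2.74.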

How the results depend on the processing

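Values are log2 ratios of the summed members (NASH to control) or counts of members past the limit. As reported, the sums were -0.24 in LSECs, 0.04 in Kupffer cells, 0.50 in other macrophages and 0.05 in lymphocytes. The count of 17 higher members in other macrophages ranged from 16 to 19 over the alternatives, and the count of 25 higher in Kupffer cells than in LSECs from 24 to 28. With at least 1000 UMIs per cell, 1 member was lower in lymphocytes. With the members kept among the variable genes, 2 were lower in LSECs, 1 lower in other macrophages and 0 higher in lymphocytes, with sums of -0.20 in LSECs and 0.03 in Kupffer cells. With the mean of per-cell CPM, 1 was higher and 1 lower in LSECs, 0 lower in other macrophages and 0 higher in lymphocytes, with sums of -0.14 in LSECs and 0.01 in Kupffer cells, and in LSECs *Ctsc* (0.58), *Ctsh* (0.11), *Ctss* (0.42) and *Laptm5* (0.25) changed sign. Scaling by the median ratio left 1 lower in other macrophages, with a sum of 0.57. Without a minimum beyond 1 UMI, 2 were higher in LSECs, 2 in Kupffer cells and 2 in lymphocytes, and 3 were higher in other macrophages than in Kupffer cells.

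With cells of 2 or more UMIs from another class's core genes left out, 4 were higher and 1 lower in LSECs (sum -0.18), 0 lower in other macrophages (0.48), 1 lower in lymphocytes and 1 lower in Kupffer cells than in LSECs, the Kupffer sum was 0.03, and in LSECs *Ctsc* (0.91), *Ctss* (0.63) and *Laptm5* (0.50) changed sign. In T cells, NK cells and ILCs alone 2 were higher and 0 lower (sum 0.09), and *Ctsh* was at 2.00. In the largest other macrophage cluster alone 1 was lower (sum 0.61). For 2 alternatives chosen after seeing the data, the *F13a1* cluster alone had 1 lower (sum 0.58) and 1 higher than Kupffer cells, and leaving out cells of 1% or more such UMIs gave 3 higher and 1 lower in LSECs (sum -0.18) and a lymphocyte sum of 0.10, with *Ctsc* (0.81), *Ctsh* (0.18), *Ctss* (0.71) and *Laptm5* (0.35) reversed. Leaving out 7 control and 5 NASH cells was enough to turn the sign of *Ctsc*, *Ctss*, *Ctsh* and *Laptm5* in LSECs. The limit of 2 UMIs, which left out 378 control and 584 NASH LSECs, kept *Ctsh* at -0.29, and with at least 1000 UMIs per cell all 4 stayed negative. Elsewhere the cause was not tested. No paired analysis was possible because each diet has 1 library. Depth limits members under 50 UMIs, such as *Atp6v0d2* in Kupffer cells.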
